A study of Drosophila melanogaster with 36 samples.

Results

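The strongest distal contacts within chromosome arms were 500 pairs of 40-kb bins, taken from 451600 eligible pairs of the Hi-C maps of Drosophila ovarian somatic cells (OSCs). A pair was eligible when its bins lay on 1 arm, 2 to 15 Mb apart, at least 2 Mb from the arm ends, and were kept in all 9 matrices. Each contact value was divided by the mean of its arm at that distance, and this ratio is the measure used throughout, so that 1 is the arm average. The pairs were ranked by the lower of their ratios in the Control-KD matrices of the Piwi series and of the Nxf2 series. Members were thus chosen by the ratios of these 2 matrices, and those values are a description. The last pair inside had a lower ratio of 2.986 and the first pair outside had 2.985, so the boundary separates near-equal pairs.

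Hi-C counts ligation products between restriction fragments that lay close together in fixed nuclei, and a pair far apart on the linear chromosome but well above the average for its distance marks a distal contact. In flies such contacts are known between regions held by Polycomb group proteins, between stretches of inactive chromatin, and between regions that a chromosome rearrangement has brought side by side. H1 is the linker histone, Egg (Eggless) is a methyltransferase for histone H3 lysine 9, HP1a binds that methylated residue, Piwi is the nuclear Argonaute protein guided by piRNAs, and Nxf2 acts with Piwi in silencing transposons during transcription.

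OSCs are a cell line from the somatic cells of the fly ovary, and all groups were OSCs that received siRNA. Control-KD cells received siRNA to EGFP, and the other groups were depleted of HP1a, H1, Egg, Nxf2 or Piwi. A control accompanied the Piwi series, the Nxf2 series and the HP1a series each, and a shared control served H1-KD and Egg-KD. HP1a-KD and its control are labelled as 2 days, and Piwi-KD lasted 4 days by the methods. The length for the H1, Egg and Nxf2 groups is not given in the sources used here, beyond a protocol with 2 or 4 days. Each matrix was the authors' sum of 2 replicates, so no spread between replicates and no p-value across them can be given. The nearest yardsticks are the difference between control matrices of equal status in the choice of pairs, and counting intervals, which cover counting error only.

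The matrices held 25463370 (H1-KD) to 73205693 (Piwi-KD) recovered contacts. A member had a median of 115 contacts in the Piwi series control, 108 in the Nxf2 series control, 48.5 in the H1 and Egg series control and 52.5 in the HP1a series control. It had a median of 38 in H1-KD, 44 in Egg-KD, 37 in HP1a-KD, 109 in Piwi-KD and 90.5 in Nxf2-KD, against 7 to 19 for all eligible pairs. The share of contacts between arms was 11.97% in HP1a-KD and 14.8% to 18.1% in the other 8 matrices.

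The members were recovered in the matrices that had no part in their choice. Their median ratio was 4.34 in the H1 and Egg series control and 4.07 in the HP1a series control, beside 4.08 and 4.05 in the Piwi and Nxf2 series controls that chose them. All eligible pairs had medians of 0.93 to 0.94 in each matrix. In each of the 2 unused controls, 415 of 500 members had a ratio of 3 or more, and 6 and 4 members were at 1 or below. The 99th percentile of all eligible pairs was 2.68 in the H1 and Egg series control and 2.59 in the HP1a series control. Of the members, 272 and 273 were also among the 500 highest of the 451600 eligible pairs in these controls taken alone. The median ratio was 3.80 in H1-KD, 3.94 in Egg-KD, 4.06 in HP1a-KD, 3.69 in Piwi-KD and 3.59 in Nxf2-KD. The quartile ranges of the 9 matrices overlapped one another.

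**Figure D1:**
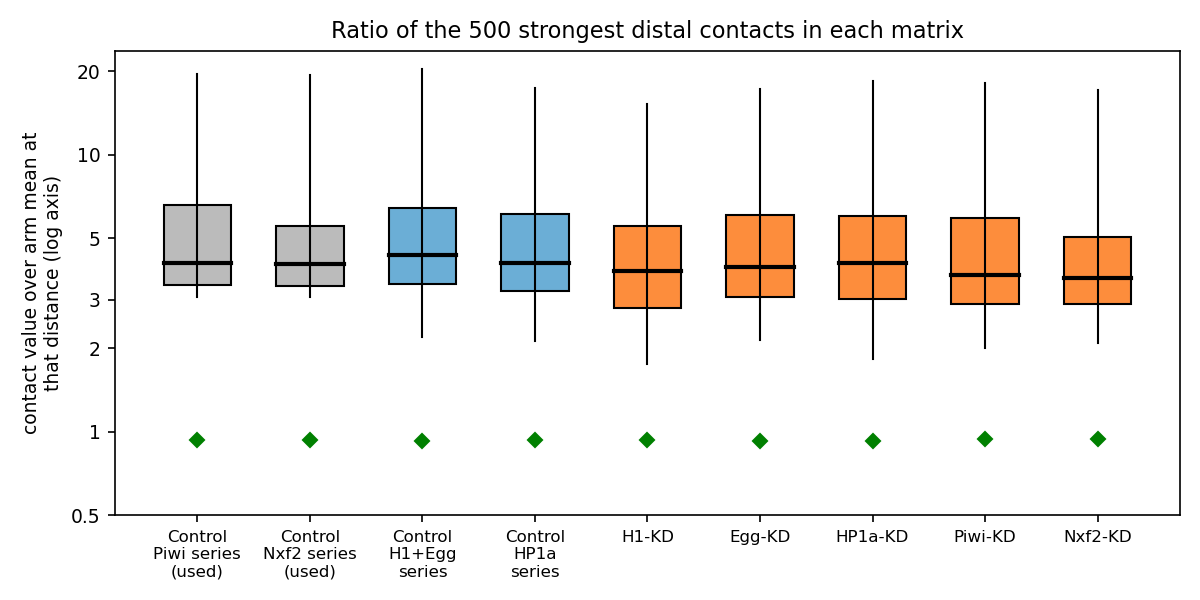
Ratio of contact value to arm mean (log axis) of the 500 members in each of the 9 matrices. Boxes span the quartiles with the median as a line, vertical lines span the 5th to 95th percentiles, grey marks the controls that chose the pairs, blue the unused controls, orange the knockdowns, and green diamonds the median of all 451600 eligible pairs. Member medians lie between 3.59 and 4.34, above the all-pair medians of 0.93 to 0.94.

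Arms were unequally represented. Arm 2L held 203 members (40.6%, with 18.3% of eligible pairs), 3L held 119, 2R held 105 and X held 52. Arm 3R held 21 members, 4.2% of the list, although it contributed 27.5% of eligible pairs. The median distance was 6.28 Mb, close to the 6.72 Mb of all eligible pairs.

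The 500 pairs were far fewer separate contacts. Joining members whose bins touched on both sides gave 105 groups, of which 65 were single pairs and 28 held 2 to 9 pairs. The 12 groups of 10 or more pairs held 343 members (68.6%). The largest, group 1, joined chr2R:4520001-4880000 with chr2R:10760001-11160000 through 54 pairs. Group 2 joined chr3L:6480001-6760000 with chr3L:9040001-9400000 through 44 pairs. Groups 3 and 4 held 39 pairs each, between chr3L:7560001-7800000 and chr3L:17000001-17520000 and between chr2L:10200001-10520000 and chr2L:18920001-19160000. Group 5 joined chr2L:6080001-6480000 with chr2L:9240001-9560000 through 32 pairs, and group 6 joined chrX:13120001-13320000 with chrX:19120001-19600000 through 27. These positions are in the dm3 build, and no annotation of that build was used here, so genes in the bins are not named.

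Around a member the ratio fell off within 400 kb. In the H1 and Egg series control the mean ratio over all members was 6.34 at the member, 4.22 at 80 kb, 2.12 at 200 kb and 1.53 at 400 kb. The HP1a series control gave 5.89, 4.02, 2.11 and 1.52. The strongest pair of each of the 105 groups was also taken alone. In the H1 and Egg series control its mean was 5.65 at the member and 1.67 at 200 kb. The median at the member was 3.28, below the 4.34 over all members. A steeper fall was partly built in, since the pair with the highest lower ratio of its group was taken.

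Shapes differed between groups. In the mean of the unused controls, the strongest pair of group 1 had a ratio of 31.5, and its neighbours 40 kb away on the first bin's side had 12.3 and 21.9. Groups 11 and 12 had no such width on that side. Group 12 joined the single bin chr2R:14920001-14960000 with 11 bins of chr2R:18680001-19120000. Its strongest pair had a ratio of 44.4, whereas the pairs of the bins directly before and after the single bin had 0.74 and 0.98. Group 11 joined the single bin chr3R:11600001-11640000 with 12 bins of chr3R:22320001-22800000, with 38.3 at its strongest pair and 1.17 and 0.59 beside it. Both were therefore stripes of 1 bin, unlike the broad patches of groups 1 and 2.

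**Figure D2:**
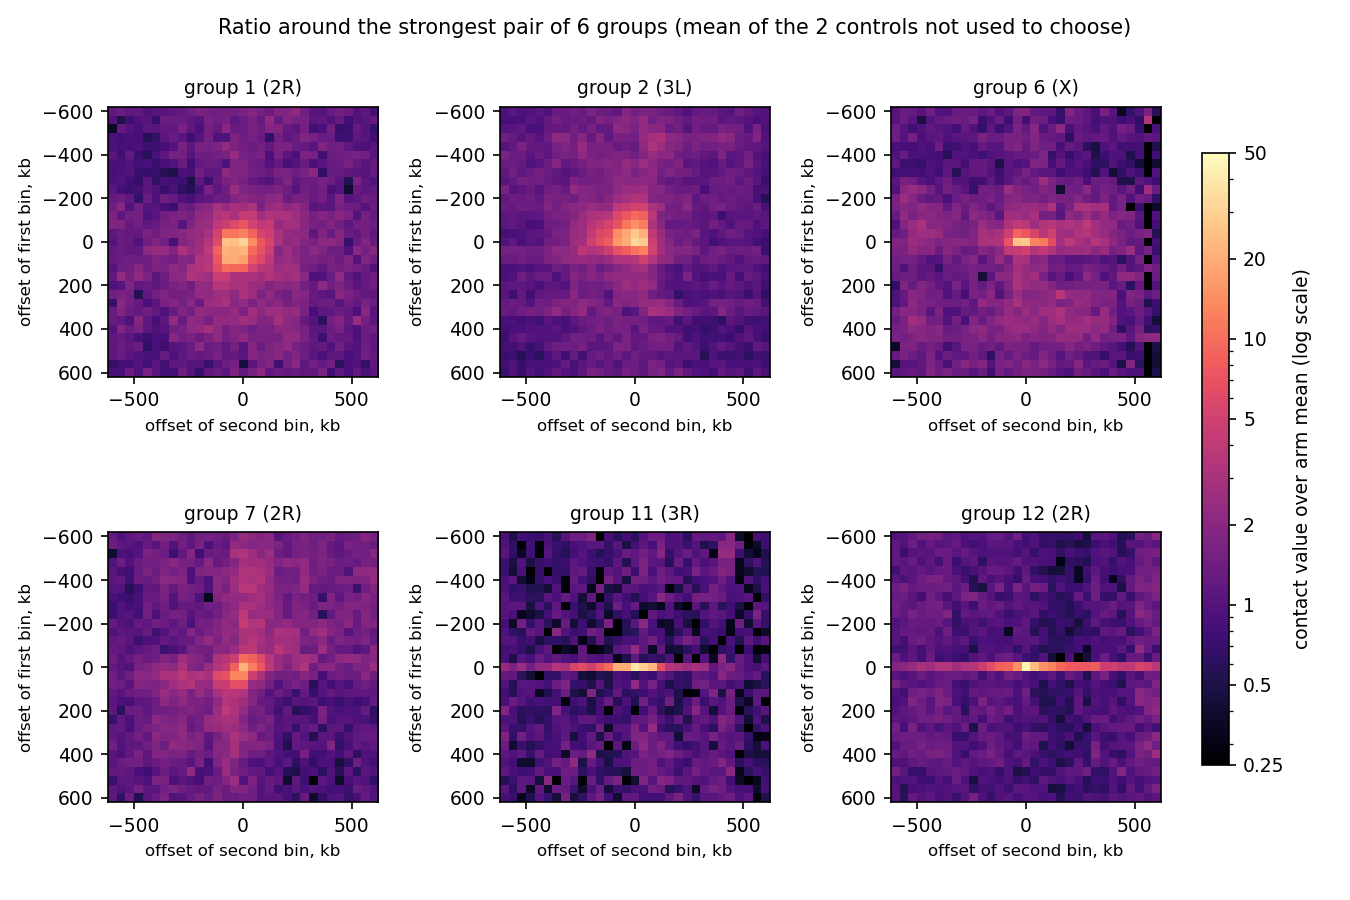
Maps of the ratio (mean of the 2 unused controls, colour on a log scale) around the strongest pair of groups 1, 2, 6, 7, 11 and 12, with offsets of the second bin (horizontal) and first bin (vertical) in kb. Groups 1 and 2 are broad patches, group 7 has arms running away from its centre in opposite corners, and groups 11 and 12 are stripes limited to 1 first bin.

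The 5 highest members were in 4 groups. The first was chr2R:14920001-14960000 with chr2R:18920001-18960000 in group 12, 4 Mb apart, with ratios of 50.1 and 45.9 in the controls that chose it and 47.7 and 41.1 in the unused H1 and Egg series and HP1a series controls. It had 46.0 in H1-KD, 51.3 in Egg-KD, 55.6 in HP1a-KD, 52.3 in Piwi-KD and 43.9 in Nxf2-KD. This contact stayed between 41.1 and 55.6 in all 9 matrices.

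The second, chr3R:11600001-11640000 with chr3R:22640001-22680000 in group 11, had 53.9, 41.6, 41.4 and 35.3 in the controls of the Piwi, Nxf2, H1 and Egg, and HP1a series. It had 27.1 in H1-KD, 44.5 in Egg-KD, 42.4 in HP1a-KD, 49.1 in Piwi-KD and 42.7 in Nxf2-KD. H1-KD was the lowest of the 9 values, below the lowest control.

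The third, chr2R:4640001-4680000 with chr2R:10960001-11000000 in group 1, was even among the controls, with 32.3, 32.4, 32.7 and 30.2 in the same order. It had 27.5 in H1-KD, 19.2 in Egg-KD, 21.8 in HP1a-KD, 20.5 in Piwi-KD and 24.3 in Nxf2-KD. These 5 values were below both unused controls (32.7 and 30.2), whereas the first 2 control values had chosen the pair and are a description.

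The fourth, chr3L:6640001-6680000 with chr3L:9280001-9320000 in group 2, had 32.0, 40.2, 33.5 and 31.3 in the controls and 29.5 in H1-KD, 31.8 in Egg-KD, 39.1 in HP1a-KD, 29.5 in Piwi-KD and 37.7 in Nxf2-KD. The fifth, chr3R:11600001-11640000 with chr3R:22680001-22720000, belonged to group 11 and shared the single bin of the second, with 42.8, 30.9, 31.5 and 26.9 in the controls and 21.3 in H1-KD. For the fourth, the values of knockdowns and controls overlapped.

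The members used 294 of 2450 eligible bins. Adjacent bins formed 86 regions joined in 84 pairs of regions. In 51 regions there was 1 partner, and 18 regions had 3 or more. The regions chr2L:10120001-10520000 and chr2R:10760001-11280000 took part in 84 members each, the most of any region, with 7 and 5 partner regions. The regions chrX:19120001-19600000, chr2L:19400001-19640000 and chr2L:13160001-13480000 also had 7 partners, with 44, 38 and 23 members. Sets of 3 regions joined to one another pairwise occurred at 2 places, on X (chrX:13120001-13320000, chrX:15920001-15960000 and chrX:19120001-19600000, 30 members) and on 3L (7 members).

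Bins of members had low contact density around themselves. Local density, the mean ratio of a bin at 40 to 400 kb in the unused controls, had a median of 0.84 over the 294 member bins and 0.93 over the 2156 other bins. Of member bins, 38.4% lay in the lowest 25% of eligible bins and 11.6% in the highest 25%. Their share of contacts between arms was higher, with a median of 15.9% against 14.6%, and 41.5% of them were in the highest 25%. Median total coverage was similar, at 1.05 and 1.00 times the median bin. For coverage, 32.3% of member bins were in the highest 25% of eligible bins and 27.9% in the lowest 25%.

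H1-KD addresses whether loss of the linker histone alters these contacts, and neither of its matrices chose the members. The median member ratio was 3.80 in H1-KD and 4.34 in its control. The median log2 change (0.1 added to each ratio) was -0.24, with quartiles of -0.57 and 0.08. It was lower at 346 members (69.2%), against 50% of all eligible pairs. A decrease of 1.5-fold or more was found at 116 members (23.2%) and an increase at 20 (4.0%), against 20.8% and 20.7% of all pairs, most of which rest on few contacts. The all-pair median was -0.0005. The HP1a series control over the H1 and Egg series control differed in the same direction by a median of -0.10. There, 309 members were lower (50.3% of all pairs), 34 by 1.5-fold or more (18.9% of all pairs), and 20 were higher by that factor (19.9% of all pairs). With the HP1a series control in place of its own, the H1-KD median was -0.16. Against the Piwi and Nxf2 series controls it was -0.19 and -0.20. These 2 controls chose the members, so a value below them was built into the choice. Part of the value of -0.24 was thus shared with a difference between controls.

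H1-KD was below both unused controls at 275 members (55.0%), against 34.0% of all pairs, and above both at 110 (22.0%), against 33.9% of all pairs. The median was lower in the stronger classes of contact, over all distances together. Pairs with a lower ratio of 1.5 to 2 had a median of -0.12, those of 2.5 to 2.986 just below the boundary had -0.18, members up to 5 had -0.21, members of 5 to 10 had -0.27, and the 54 members of 10 or more had -0.31. Pairs under 0.5 had 0.03. Within distances this did not hold throughout. Members had -0.40 at 2 to 3 Mb, -0.07 at 3 to 5 Mb, -0.13 at 5 to 8 Mb and -0.28 at 8 to 15 Mb, and other pairs with a lower ratio of 1.5 or more had -0.10, -0.11, -0.14 and -0.13. Members were thus lower than these weaker pairs at the shortest and longest distances and not at 3 to 8 Mb. The member medians at 2 to 3 and 5 to 8 Mb largely restate groups of touching pairs. At 2 to 3 Mb, groups 2, 8, 14 and 19 (44, 22, 7 and 4 pairs) had -0.43, -0.21, -1.07 and -0.79. At 5 to 8 Mb, groups 1, 6 and 10 (54, 27 and 20 pairs) had -0.20, -0.39 and 0.38. Members in the strength classes also touch and are not separate observations. The control difference over the same classes went from -0.01 under 0.5 to -0.15 at 10 or more. Local density moved the other way at member bins, with a median log2 change of 0.08 against 0.03 at other bins.

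**Figure D3:**
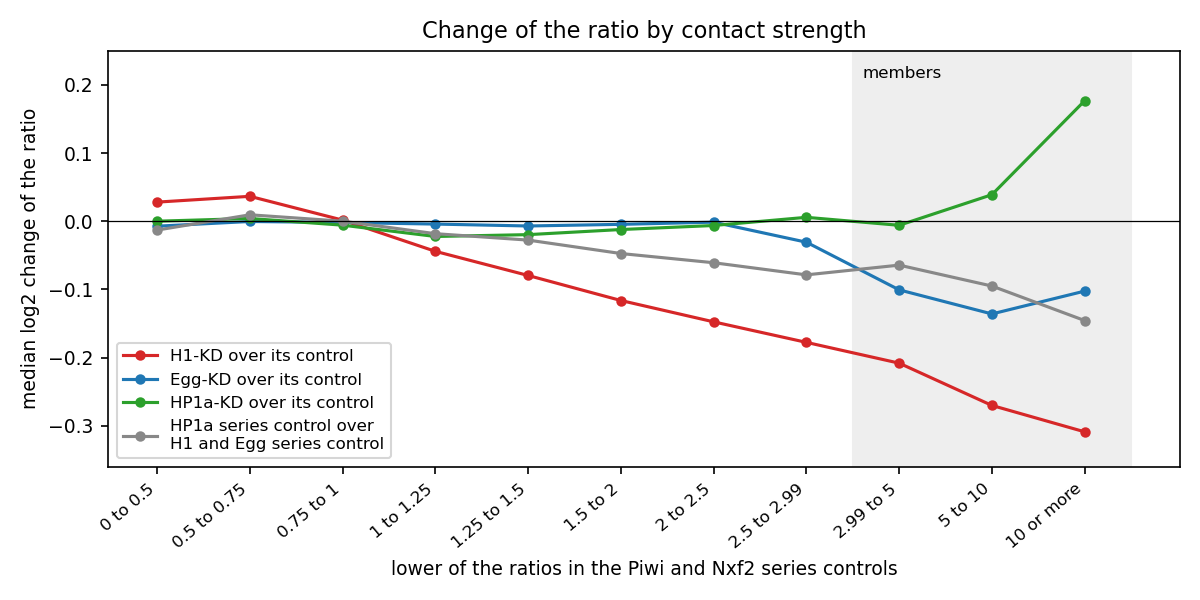
Median log2 change of the ratio for eligible pairs in 11 classes of contact strength (the lower of the ratios in the Piwi and Nxf2 series controls). Points show the knockdowns of H1, Egg and HP1a over their controls and, in grey, the HP1a series control over the H1 and Egg series control, and the shaded classes are the members. H1-KD descends from 0.03 to -0.31, and Egg-KD stays near 0 until the shaded classes.

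By arm, the H1-KD median was -0.40 on X, -0.16 on 2L, -0.19 on 2R, -0.30 on 3L and -0.45 on 3R. On 3R, 12 of the 21 members were in group 11, a stripe of 1 bin whose controls differed, as given below. On X, 27 of the 52 members were in group 6. The values of these arms thus rest largely on 1 group each. Of the 12 large groups, 9 were lower, and the counting intervals of these 9 lay below 0. The HP1a series control over the H1 and Egg series control was lower in all 12, with 9 intervals below 0. The Nxf2 series control over the Piwi series control had 5 intervals below 0 and 7 above. Such counts thus also arose between controls. Group 2 on 3L had mean ratios of 9.03, 8.84, 9.43 and 8.88 in the Piwi, Nxf2, H1 and Egg, and HP1a series controls and 6.98 in H1-KD, a log2 change of -0.43 (-0.48 to -0.39, 95% counting interval). Group 6 on X had 6.07, 6.79, 6.70 and 6.60 in the controls and 5.13 in H1-KD, a change of -0.39 (-0.48 to -0.29). Both were below both unused controls.

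Some groups went the other way in H1-KD. Group 10 joined chr3L:12720001-13000000 with chr3L:19800001-20120000 through 20 pairs, with 3.68, 4.55, 4.55 and 4.08 in the controls and 5.92 in H1-KD, a change of 0.38 (0.26 to 0.51). Group 5 was 0.11 higher (0.04 to 0.18), at 8.20 against 6.996 to 7.599 in the controls. The largest single increase among members with at least 20 contacts in the control was in group 10. The pair chr3L:12840001-12880000 with chr3L:20000001-20040000 had 8.69 in the control and 14.6 in H1-KD, a log2 change of 0.74 (0.27 to 1.22). The next was in group 23, at chr2L:10360001-10400000 with chr2L:16320001-16360000, from 2.14 to 3.45 on 21 and 30 contacts, and its interval included 0 (0.66, -0.17 to 1.56).

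The largest single decrease in H1-KD was in group 14, at chr2L:12720001-12760000 with chr2L:15280001-15320000. It had 7.92 in its own control and 1.94 in H1-KD, from 148 and 27 contacts, a log2 change of -1.98 (-2.68 to -1.43). The same pair had 11.8 in the Piwi series control, 3.96 in the Nxf2 series control and 5.75 in the HP1a series control. The next decrease was in group 11, from 24.3 to 6.89. These single pairs were picked for their size and stood in groups that also differed between controls, as given below.

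Egg-KD addresses the loss of an H3K9 methyltransferase, and it shares its control matrix with H1-KD. The median member ratio was 3.94 in Egg-KD and 4.34 in the control, and the median log2 change was -0.10. It was lower at 304 members (60.8%), against 50.2% of all pairs. A decrease of 1.5-fold or more was found at 73 members (14.6%) and an increase at 29 (5.8%), against 20.4% and 20% of all pairs. Its median was about as large as the difference between the unused controls, and it was -0.01 when the HP1a series control was used instead. Egg-KD was below both unused controls at 213 members (42.6%, 33.6% of all pairs) and above both at 155 (31.0%, 33.4% of all pairs). The members as a list were thus not separated from the variation between controls in Egg-KD.

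Group 1 on 2R had the largest Egg-KD decrease of the 12 large groups. Its mean ratio was 8.34, 8.58, 9.02 and 8.51 in the Piwi, Nxf2, H1 and Egg, and HP1a series controls and 5.90 in Egg-KD, a log2 change of -0.61 (-0.68 to -0.55). Of its 54 pairs, 52 were lower (50.2% of all pairs), but they touch and share bins and are not separate observations. Of the other large groups, 3 had counting intervals below 0 and 3 had intervals above 0. Between the unused controls, 9 of the 12 had intervals below 0 and 0 above. Group 2 had a change of -0.26 (-0.31 to -0.22). Group 6 on X was 0.18 higher (0.10 to 0.26), at 7.598 against 6.07 to 6.79 in the controls. The largest single decrease lay in group 1, at chr2R:4560001-4600000 with chr2R:11080001-11120000, which went from 4.68 to 1.43 on 43 and 13 contacts. The largest single increase was at chr2L:13320001-13360000 with chr2L:19600001-19640000, from 5.01 to 9.98 on 52 and 106 contacts. Without the 12 large groups the Egg-KD median over the remaining members was 0.04.

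HP1a-KD addresses the loss of the reader of H3K9 methylation over 2 days. Its median member ratio was 4.06, against 4.07 in its control, and the median log2 change was 0.02, with quartiles of -0.37 and 0.28. It was lower at 244 members (48.8%), against 50% of all pairs. A decrease of 1.5-fold or more was found at 68 (13.6%, 21.3% of all pairs) and an increase at 34 (6.8%, 19.9% of all pairs). It was below both unused controls at 208 members (41.6%, 34.1% of all pairs) and above both at 173 (34.6%, 34.1% of all pairs). Beneath the median near 0, large groups lay on both sides.

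Of the 12 large groups in HP1a-KD, 7 had counting intervals above 0 and 4 below 0. Between the unused controls, 0 had intervals above 0 and 9 below. Group 1 had 8.51 in its own control and 6.06 in HP1a-KD, a log2 change of -0.49 (-0.56 to -0.42). Of its 54 touching pairs, 53 were lower (50% of all pairs). Group 6 on X went from 6.60 to 4.65, a change of -0.51 (-0.61 to -0.40), and group 10 on 3L from 4.08 to 3.01, a change of -0.44 (-0.59 to -0.29). These 3 were below both unused controls.

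Higher in HP1a-KD were group 2 on 3L, from 8.88 to 11.2 (0.33, 0.29 to 0.37), and group 12 on 2R, from 13.1 to 16.8 (0.36, 0.30 to 0.43). Of the 44 touching pairs of group 2, 1 was lower (50% of all pairs). Group 8, which joined chr2L:6320001-6480000 with chr2L:8920001-9200000 through 22 pairs, went from 6.96 to 8.62 (0.31, 0.25 to 0.37). All 3 exceeded their values in both unused controls. Groups 2, 8 and 12 spanned 2.64, 2.68 and 4 Mb at their strongest pairs, and groups 1, 6 and 10 spanned 6.32, 6 and 7.16 Mb. Higher groups were not all short, since group 4 was 0.20 higher and spanned 8.64 Mb. Group 11 was 0.24 higher than its own control and spanned 11.04 Mb. The 4 controls of group 11 spanned 0.55 on the log2 scale, more than this change. Over the members, the HP1a-KD median was 0.25 at 2 to 3 Mb, 0.08 at 3 to 5 Mb, -0.37 at 5 to 8 Mb and 0.04 at 8 to 15 Mb. These medians largely restate the groups, since groups 2 and 8 (44 and 22 pairs) made up most of the 95 members at 2 to 3 Mb, and groups 1, 6 and 10 (54, 27 and 20 pairs) most of the 145 at 5 to 8 Mb. Other pairs with a lower ratio of 1.5 or more had 0.05, 0.03, -0.05 and -0.04 at these distances, so the difference was small outside the members. The share of contacts between arms was 11.97% in HP1a-KD and 16.3% in its control, and its part in these values was not tested.

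**Figure D4:**
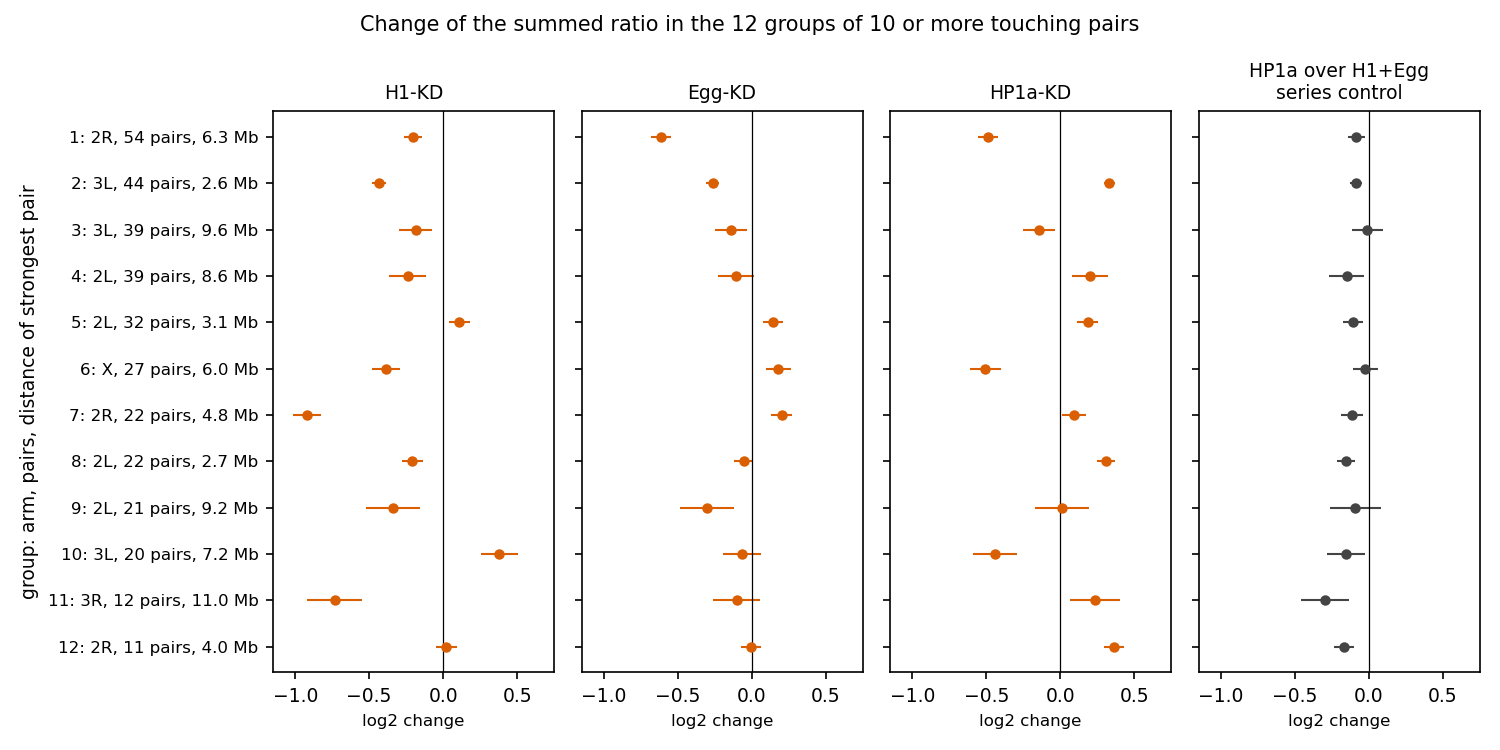
Log2 change of the summed ratio of the 12 groups of 10 or more touching pairs in the knockdowns of H1, Egg and HP1a over their controls, and of the HP1a series control over the H1 and Egg series control. Points are the change and bars its 95% counting interval, which covers counting error only. Group 1 is at -0.61 in Egg-KD and -0.49 in HP1a-KD, groups 2, 8 and 12 are above 0 in HP1a-KD, and the controls differ by -0.30 to -0.01.

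Several strong contacts differed between control matrices. Among the 21 groups of 4 or more pairs, the highest control exceeded the lowest by a median of 1.17-fold, and 3 groups (7, 14 and 19, 33 members) by 1.5-fold or more. Group 7 joined chr2R:6320001-6560000 with chr2R:11000001-11280000 through 22 pairs. Its mean ratio was 12.2 in the Piwi series control and 13.6 in Piwi-KD, 5.96 in the Nxf2 series control and 7.12 in Nxf2-KD. It was 7.67 in the H1 and Egg series control, 4.06 in H1-KD, 8.84 in Egg-KD, 7.08 in the HP1a series control and 7.56 in HP1a-KD. Both matrices of the Piwi series were above the other 7, and H1-KD was below the other 8.

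Group 14, between chr2L:12680001-12800000 and chr2L:15240001-15360000, had the same order. It had 11.3 in the Piwi series control and 13.99 in Piwi-KD, 4.53 in the Nxf2 series control and 5.37 in Nxf2-KD, and 6.70, 3.19 and 7.39 in the H1 and Egg series control, H1-KD and Egg-KD. Group 19, between chr2L:13360001-13480000 and chr2L:15400001-15480000, had 7.08 in the Piwi series control, 8.23 in Piwi-KD, 3.52 in the Nxf2 series control and 2.77 in H1-KD. The single-bin group 11 on 3R had 19.2, 14.4, 16.1 and 13.1 in the 4 controls and 9.68 in H1-KD.

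In these groups H1-KD had the lowest value of the 9 matrices, with log2 changes of -0.92 (-1.01 to -0.82) for group 7, -1.07 (-1.23 to -0.91) for group 14, -0.79 (-1.01 to -0.57) for group 19 and -0.73 (-0.92 to -0.55) for group 11. The difference between the Nxf2 and Piwi series controls was of like size, at -1.04, -1.32 and -1.01 for groups 7, 14 and 19. Depletion of H1 and a difference between cultures cannot be told apart for these 3 groups. For group 11, a stripe of 1 bin, the controls spanned 1.47-fold (0.55 on the log2 scale) beside the change of -0.73 in H1-KD. The cause was not tested there either. Without the groups whose controls differed by 1.5-fold or more, the H1-KD median over members was -0.20.

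**Figure D5:**
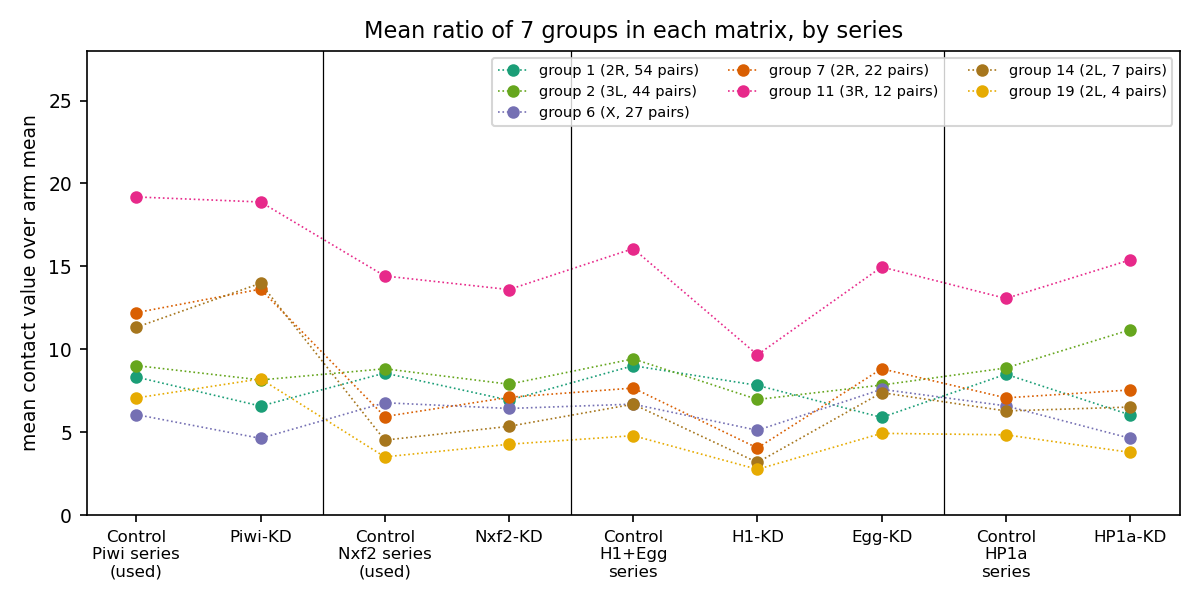
Mean ratio of 7 groups in the 9 matrices, ordered by series, with vertical lines between series and dotted lines joining the values of a group. Groups 1, 2 and 6 differ little between the 4 controls, whereas groups 7, 14 and 19 are highest in both matrices of the Piwi series and lowest in H1-KD.

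Piwi-KD and Nxf2-KD were compared with controls that had chosen the members, so a value below the control was built into the choice. The median log2 change was -0.17 in Piwi-KD, with 368 members lower (50.1% of all pairs), and -0.18 in Nxf2-KD, with 391 lower (50.3% of all pairs). In Piwi-KD, 51 members were lower by 1.5-fold or more (11.4% of all pairs) and 1 was higher (11.6% of all pairs). In Nxf2-KD, 53 were lower by that factor (12.3% of all pairs) and 2 were higher (12.4% of all pairs). Nothing is read from these counts.

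The same rule on the H1 and Egg series and HP1a series controls chose 500 pairs, 346 of them members (69.2%), for which the Piwi and Nxf2 series matrices were not used. These pairs formed 124 groups. Their median log2 change was -0.11 in Piwi-KD, with 324 lower (64.8%, 50.1% of all pairs). In Nxf2-KD it was -0.12, with 342 lower (68.4%, 50.3% of all pairs). The Nxf2 series control over the Piwi series control had a median of -0.02 over the same pairs. By arm, the medians ran from -0.25 to -0.06 in Piwi-KD, from -0.18 to 0.04 in Nxf2-KD and from -0.46 to 0.11 between these controls. Over all these pairs both knockdown medians were thus below 0, by less than on the members, but Nxf2-KD was above 0 on 3R.

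The unused controls are those of H1-KD, Egg-KD and HP1a-KD, and for Piwi-KD and Nxf2-KD they come from other series. Set against these controls, group 1 was lower in every knockdown. Its mean ratio was 9.02 and 8.51 in the H1 and Egg series and HP1a series controls, 6.59 in Piwi-KD, 6.94 in Nxf2-KD, 6.06 in HP1a-KD, 5.90 in Egg-KD and 7.83 in H1-KD. Group 6 on X had 4.64 in Piwi-KD and 6.44 in Nxf2-KD, beside 6.70 and 6.60 in the unused controls. The controls of the Piwi and Nxf2 series had 8.34 and 8.58 in group 1 and 6.07 and 6.79 in group 6, values that took part in the choice, and no change against them is read here.

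The bins with most members were chr2L:6360001-6400000, chr2L:19480001-19520000 and chr2R:11080001-11120000, with 14 each, followed by chr2L:6400001-6440000 and chr2L:10240001-10280000 with 13 each. The bin chr2R:11080001-11120000 took part in groups 1 and 7 and in 1 single pair. Its 7 members in group 1 had a median log2 change of -0.65 in Egg-KD, -0.61 in HP1a-KD and -0.11 in H1-KD. Its 6 members in group 7, where controls differed, had 0.30, 0.09 and -0.73 in the same knockdowns. The single pair had 0.12, -0.35 and -1.29. The controls of group 7 spanned 1.04 on the log2 scale, more than its changes here, so no difference between partners is read. Local density of this bin, which did not choose the members, was lower by -0.29 (log2) in Piwi-KD and -0.33 in Nxf2-KD, and differed by 0.01 in HP1a-KD, -0.05 in Egg-KD and -0.05 in H1-KD.

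The bin chr2L:6360001-6400000 was in groups 5 and 8. Its 8 members in group 5 had a median change of -0.03 in H1-KD and 0.20 in HP1a-KD, and its 6 in group 8 had -0.30 and 0.39. Its local density was at percentile 5.20 of eligible bins and its share of contacts between arms at percentile 92.4. The bin chr2L:19480001-19520000 spread its 14 members over 6 groups, with a median ratio of 4.06 in the H1 and Egg series control, 3.51 in H1-KD and 3.53 in Egg-KD. It had 3.86 in HP1a-KD against 3.74 in its control.

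A division of the bins by the first principal component of the arm maps could not be used. Both bins had the same sign at 72.6% of members in the summed unused controls, but at 34.2% and 47.4% in the controls taken alone (66.6%, 47.9% and 52.7% of all pairs), and 0.73% of all pairs had both bins on the positive side.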

How the data were processed

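Hi-C libraries of OSCs (HindIII digestion) were processed by the authors with HiCExplorer: 2 replicates per group were summed, bins of extreme coverage removed, and the values ICE-corrected and scaled between the matrices of a comparison, in 40-kb bins of dm3. The deposited signal values (column of contact values per pair of bins) have no replicate columns. The role of the tools named in the submitters' processing notes (Bowtie2 2.2.9, cutadapt, MACS 1.4.2) in the Hi-C part is not given in the sources used here. The other assays of the series were not used here.

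Contacts before correction were recovered as whole multiples of 2 bin factors. In all 9 matrices, 100% of values under 50 were whole within 0.01. The ratio of a pair is the signal over the mean of kept bins of its arm at that distance, absent pairs counting as 0. The change is log2((knockdown + 0.1)/(control + 0.1)), summarised as a median over pairs. For groups it is the log2 ratio of summed ratios, with an exact (Clopper-Pearson) 95% interval from the contacts. PCR reads are not independent molecules, so intervals cover counting error only. Groups joined pairs whose bins were both within 1 bin. Coordinates are 1-based.

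The members and lists were chosen with earlier results of these data known. Named were the 5 highest pairs, the largest groups, the 5 bins with most members, the largest single changes among members with at least 20 control contacts, and any pair at a FISH probe of the study, of which none was named. The 2L probe lay within 2 Mb of the arm end, so its bin was not eligible. Groups 7, 8, 10, 11, 12, 14 and 19 were named after their values were seen. Steps were tested on simulated data. Python 3.11.15, NumPy 2.4.6, SciPy 1.17.1 and pandas 2.3.3 were used. Alternatives covered the pseudocount, correction, expected value, control, number and choice of members, neighbourhood, depth, distance and arm.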

Additional observations from a re-analysis of the deposited data

How the results depend on the processing

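No paired analysis was possible because the 2 replicates of each group are merged in the deposited matrices. Of 24 alternatives per knockdown, H1-KD stayed below 0 in 24 (-0.45 to -0.16), Egg-KD in 21 (-0.28 to 0.08) and HP1a-KD in 10 (-0.38 to 0.19). Among these, alternatives set against a control that chose the members had a value below 0 built in. For Piwi-KD (-0.35 to -0.04) and Nxf2-KD (-0.37 to -0.08), this held for most alternatives. Nothing is read from their 24 values below 0 each. A value counted as moved when it shifted by more than 0.07, the spread between control pairs of equal status.

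With 1 pair (the strongest) per group of touching members, Egg-KD turned to 0.068, Piwi-KD and Nxf2-KD were at -0.31 each, and the mean ratio 200 kb from the member was 1.67 in place of 2.11. Without the groups of 10 or more pairs, an alternative chosen after seeing the data, Egg-KD turned to 0.036, Piwi-KD was at -0.29 and Nxf2-KD at -0.26. At 2 to 5 Mb, HP1a-KD was at 0.19, Piwi-KD at -0.036 and Nxf2-KD at -0.085, and at 5 to 15 Mb these were at -0.13, -0.26 and -0.27. On X alone, H1-KD was at -0.40, Egg-KD at 0.083 (reversed), HP1a-KD at -0.38 and Piwi-KD at -0.35. On 2L alone, H1-KD was at -0.16, Egg-KD at -0.027, HP1a-KD at 0.13 and Piwi-KD at -0.11. On 2R alone, Egg-KD and HP1a-KD were both at -0.28, and on 3L alone Egg-KD was at -0.19. On 3R alone, H1-KD was at -0.45, HP1a-KD at 0.10 and Nxf2-KD at -0.37. Group 11 held 12 of the 21 members on 3R, and group 6 held 27 of the 52 on X. Against the HP1a series control, H1-KD was at -0.16, Egg-KD at -0.0056 and Piwi-KD at -0.11. HP1a-KD was at -0.086, -0.075 and -0.15 against the H1 and Egg, Nxf2 and Piwi series controls, and at -0.056 on contacts before ICE correction. The Nxf2 and Piwi series controls chose the members, so a value below them was built into the choice. Members chosen on the H1 and Egg series and HP1a series controls put H1-KD at -0.37, Egg-KD at -0.23 and HP1a-KD at -0.14, whose controls then made the choice. The mean of 3 x 3 bins gave -0.10 for Piwi-KD. The 250 highest pairs and a list 2 times as long as the main one had control medians of 6.24 and 3.23 in place of 4.204, and formed 36 and 307 groups in place of 105. Contacts before ICE correction gave a control median of 4.86. The same-sign share of the principal component was 34.2% in the H1 and Egg series control and 47.4% in the HP1a series control. Leaving out the groups whose controls differed by 1.5-fold or more, or the stripes of 1 bin, both chosen after seeing the data, moved no knockdown by more than the spread. The cause of these differences was not tested. With 37 to 52.5 contacts for the median member of the shallower series, single pairs there rest on few contacts.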
